A study of Mus musculus with 6 samples.

Results

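The genes described here are the anaphylatoxin receptors C5ar1 and C3ar1 and 6 genes of the alternative complement pathway, C3, Hc, Cfb, Cfd, Cfp and Cfi. They form a named list, matched by symbol to a table of 770 mouse genes, and all 8 were in it. The genes were chosen by pathway with the difference between the treatment groups of these same libraries known, so that difference is given for them as a description with no test. The samples were primary tumours from mice in which 4NQO, a carcinogen that acts on the oral lining, had induced squamous cell carcinoma of the mouth (OSCC). In 1 group 3 tumours came from mice given vehicle, and in the other 3 came from mice given agonistic anti-CD40, an antibody that activates the receptor CD40 on antigen-presenting cells. Every sample was RNA from formalin-fixed, paraffin-embedded tissue. The labels name no mouse strain, age, antibody clone, dose or schedule. They also do not say whether the samples of a group came from separate animals, so the spread between them may be partly technical. Values are log2 normalized counts as the authors deposited them, group values are mean ± SD with n = 3, and a difference is anti-CD40 minus vehicle.

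Complement is a cascade of plasma proteases that tags and punctures targets. In its alternative pathway, activated C3 binds factor B, factor D cleaves the bound factor B, and the resulting C3 convertase, held together by properdin, cleaves more C3. Cleavage of C3 and of C5 releases C3a and C5a, the anaphylatoxins, which act through C3ar1 and C5ar1 on myeloid cells, mast cells and other cells. Factor I breaks down active C3 and stops the loop. Much circulating complement is made in the liver, while macrophages, neutrophils, fibroblasts, epithelium and fat cells make components locally.

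Of the 8 members, 6 have a promoter in the RefSeq table used here (build GRCm38.p6, 250 bases before to 50 after the start of the gene), Cfb and Cfi being the others. The windows of C5ar1, C3 and Cfd are printed because C5ar1 had the clearest separation of the groups, C3 the highest counts of the 8 and Cfd the widest spread between libraries. Capitals mark matches, on either strand, to the C/EBP core TTNNGNAA, to the PU.1 core AGGAAGT and to the NF-κB consensus. These are factors of myeloid and inflammatory gene expression, and in these 3 windows no matches overlapped.
C5ar1, chr7:16259289-16259588, minus strand: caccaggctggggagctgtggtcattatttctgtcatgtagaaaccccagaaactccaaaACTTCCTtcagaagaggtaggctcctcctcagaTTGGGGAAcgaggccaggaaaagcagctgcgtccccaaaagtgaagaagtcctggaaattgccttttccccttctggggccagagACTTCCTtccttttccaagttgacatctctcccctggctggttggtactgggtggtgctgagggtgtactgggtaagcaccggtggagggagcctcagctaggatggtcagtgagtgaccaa
C3, chr17:57228087-57228386, minus strand: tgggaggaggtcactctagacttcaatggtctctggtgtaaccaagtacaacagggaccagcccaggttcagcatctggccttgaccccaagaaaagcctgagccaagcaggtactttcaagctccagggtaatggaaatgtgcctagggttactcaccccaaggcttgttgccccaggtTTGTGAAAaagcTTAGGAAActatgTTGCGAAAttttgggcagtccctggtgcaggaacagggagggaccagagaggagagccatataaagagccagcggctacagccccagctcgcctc
Cfd, chr10:79890603-79890902, plus strand: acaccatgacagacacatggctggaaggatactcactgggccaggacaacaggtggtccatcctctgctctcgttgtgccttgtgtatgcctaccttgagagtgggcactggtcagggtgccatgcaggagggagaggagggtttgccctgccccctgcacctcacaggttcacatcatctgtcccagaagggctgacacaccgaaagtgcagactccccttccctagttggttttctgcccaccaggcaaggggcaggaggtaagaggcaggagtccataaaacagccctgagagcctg
C5ar1 held 2 matches to the PU.1 core, both read as ACTTCCT on the strand printed, and 1 to the C/EBP core. At least 1 PU.1 core was present in 9.35% of 32851 promoter windows of this length, and 2 or more in 0.645%. C3 held 3 matches to the C/EBP core within its last 120 bases, whereas 40.7% of windows held at least 1 and 3.60% held 3 or more. The windows of Cfd, C3ar1 and Cfp held none of the 3 motifs, and that of Hc held 1 C/EBP core. The NF-κB consensus, present in 8.46% of all windows, was in none of the 6 members' windows. A match is a description of the letters, not of a bound site.

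The background limit of a library was the mean count of its 8 negative control probes plus 2 SD, in whole counts recovered from the deposited values. That limit lay between 24.7 and 26.6 counts, or 5.57 to 6.52 on the log2 scale. C5ar1, C3ar1, C3, Cfb and Cfp were above it in all 6 libraries, Cfd in 5, Cfi in 2 and Hc in 1. Library totals ran from 333400 to 578598 counts over the 770 genes, of which 523 were above the limit in every library. The squamous keratin genes Krt5 and Krt14 were not among the 770 genes. The epithelial genes Epcam, Cdh1 and Cd9 were above the limit in all 6 libraries, and Epcam lay between 10.16 and 11.52. Cdh1, the E-cadherin gene, was 12.51, 12.25 and 12.41 in vehicle and 12.01, 12.13 and 11.94 in anti-CD40 libraries, lower without overlap by 0.36 in the mean.

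In the mean, 7 of the 8 members were higher in anti-CD40 tumours and C3ar1 was lower by 0.02, with a median difference of 0.60 over the list. Over all 770 genes 420 were higher (54.5%), with a median difference of 0.04. The values of the groups did not overlap for 2 members, C5ar1 and Cfp, which both lay higher in anti-CD40 tumours. Non-overlap in that direction was seen for 52 of the 770 genes (6.75%), in the other direction for 27 (3.51%), and in either for 79 (10.3%). Limma with Benjamini-Hochberg adjustment over all genes called 0 of 770 (0%) at an adjusted p of 0.05, the lowest adjusted p being 0.974, and 25 genes had an unadjusted p under 0.05. Limma-voom on the recovered counts also called 0, with 26 at an unadjusted p under 0.05. In bulk tissue, fewer cells of a type and less RNA per cell cannot be told apart.

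**Figure D1:**
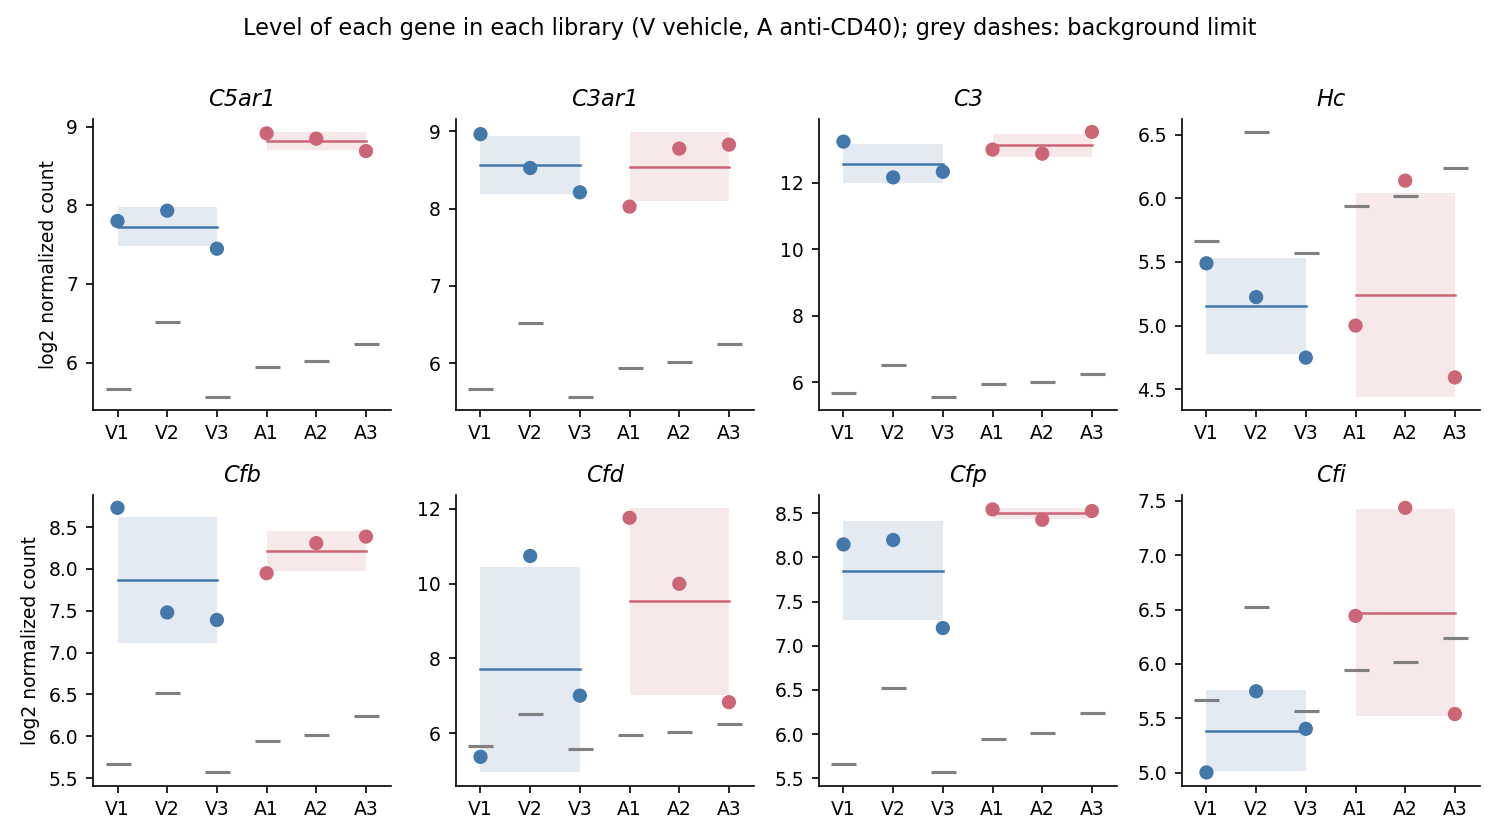
Log2 normalized count (vertical axis, a separate scale in each panel) of the 8 genes in each of 3 vehicle (blue, V1 to V3) and 3 anti-CD40 libraries (red, A1 to A3), with group means as lines, ± 1 SD as bands and each library's background limit as a grey dash. C5ar1 and Cfp are the panels whose groups do not overlap, Cfd spans 6.39 log2 units, and most points of Hc and Cfi lie under the limit.

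C5ar1, the receptor for C5a that guides neutrophils and macrophages to sites of complement activation, read 7.80, 7.93 and 7.45 in vehicle tumours 1, 2 and 3. In anti-CD40 tumours 1, 2 and 3 it read 8.92, 8.85 and 8.69. Each anti-CD40 library thus lay above each vehicle library, and the lowest anti-CD40 value exceeded the highest vehicle value by 0.76, more than either group's SD. The group values were 7.73 ± 0.25 and 8.82 ± 0.12, a difference of 1.09 (SE 0.23) or 2.13-fold. Only 9 of the 770 genes had a larger positive difference. With any 1 library left out the difference stayed between 0.95 and 1.19. The recovered counts were 119, 73 and 99 in vehicle and 209, 187 and 146 in anti-CD40 libraries. The 95% exact Poisson interval of the smallest of these ran from 57.2 to 91.8 counts, which covers counting error only.

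C3ar1, the receptor for C3a, had no such separation. It was 8.97, 8.53 and 8.21 in vehicle tumours 1, 2 and 3, then 8.03, 8.78 and 8.83 in anti-CD40 tumours 1, 2 and 3. The highest value was a vehicle library and the lowest an anti-CD40 library. The groups were 8.57 ± 0.38 and 8.54 ± 0.45, a difference of −0.02 (SE 0.32), which was 0.24 without anti-CD40 1, 0.18 without vehicle 1 and −0.20 without vehicle 3.

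Markers of the cells that carry these receptors were set beside them. The macrophage and monocyte list had 13 of 15 genes measured, 11 of them above the limit in all libraries, and 8 of 13 were higher in the anti-CD40 mean. Its mean level was 8.47, 8.37 and 7.70 in vehicle and 8.17, 8.58 and 8.21 in anti-CD40 libraries, so the groups overlapped. Its summed normalized count ran from 3858 to 6391 in vehicle and from 5187 to 6593 in anti-CD40 tumours. Defining markers gave differences of 0.25 for Csf1r, the receptor of macrophage growth factor, −0.13 for Cd68 and 0.39 for the endotoxin co-receptor gene Cd14. Cd163 and Mrc1, scavenger receptors of resident macrophages, were the 2 of 13 whose groups did not overlap, with differences of 0.67 and 0.38. Over all genes 6.75% were higher without overlap. Ccr2, Cx3cr1, Fcgr1 and Cd86 of the same list were lower in the mean, by −0.46, −0.34, −0.20 and −0.17, with overlapping groups. Relative to the list's mean in the same library, C5ar1 was −0.67, −0.44 and −0.25 in vehicle and 0.74, 0.27 and 0.48 in anti-CD40 libraries, which again did not overlap and differed by 0.95.

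The mature neutrophil list, with 8 of 11 genes measured and 4 above the limit in all libraries, averaged 7.67, 8.09 and 6.92 in vehicle and 7.94, 8.65 and 6.97 in anti-CD40 libraries. Its summed normalized count, mostly S100a8, ran from 28732 to 143423 in vehicle and from 28284 to 149797 in anti-CD40 tumours. Its defining markers Csf3r, Cxcr2 and S100a8 differed by 0.66, 0.56 and −0.10, with overlapping groups. Anti-CD40 3 and vehicle 3 were the lowest libraries of their groups on this list. Their medians over all genes, 7.90 and 7.68, were the lowest of their groups too. C5ar1 was also lowest of its group in each, at 8.69 and 7.45, the former within 0.23 of the highest library. Relative to the neutrophil list, C5ar1 was 0.13, −0.16 and 0.53 in vehicle and 0.97, 0.20 and 1.72 in anti-CD40 libraries, and these overlapped. Of 5 measured mast cell genes 4 were higher in the anti-CD40 mean, and the list averaged 6.65 ± 0.32 and 6.90 ± 0.14. Its summed normalized count ran from 557 to 774 in vehicle and from 788 to 1010 in anti-CD40 tumours. Only 2 of the 5, the defining markers Cma1 and Kit, were above the limit in all libraries, and the defining marker Ms4a2 was above it in none, so much of the list mean is near background. Relative to it C5ar1 differed by 0.85 with groups that did not overlap. The dendritic cell list had 5 of 9 genes measured, 1 of them above the limit in all libraries, and 0 of 5 were higher in the anti-CD40 mean. It averaged 6.76 ± 0.38 and 6.41 ± 0.37, and the groups overlapped. Its defining markers Flt3, Itgax and Xcr1 differed by −0.75, −0.16 and −0.33. Relative to the list of immature granulocyte granule genes given below, C5ar1 differed by 0.23, and the groups overlapped. The part of these cell types in the C5ar1 difference was not tested.

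Likeness to the receptors was measured by Pearson's r over the 6 libraries among the 522 other genes above the limit in all of them, as a description with no p. The 5 genes most like C5ar1 were Itga5, an integrin chain that binds fibronectin (r = 0.95), Irak3, an inhibitor of Toll-like receptor signalling (0.94), the transcription factor gene Creb5 (0.92), the TGF-β receptor gene Tgfbr1 (0.91) and the antiviral adaptor gene Mavs (0.90). All 5 also had groups that did not overlap, with differences from 0.28 to 0.66, so these r values carry the same split between groups. The 5 genes most like C3ar1 were Ccl2, which encodes a monocyte chemoattractant (r = 0.95), the peptidoglycan sensor gene Nod1 (0.93), the NF-κB subunit gene Relb (0.93), Socs3, an inhibitor of cytokine signalling (0.92), and Entpd1, which encodes the ectonucleotidase CD39 (0.91). The groups overlapped for each of these 5. The 6 libraries share their normalization, and few points leave room for high r among many genes.

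C3, the central component whose cleavage yields C3a and C3b, had recovered counts of 1395 to 5266 per library, far above background. It was 13.24, 12.16 and 12.33 in vehicle tumours 1, 2 and 3, then 13.0, 12.88 and 13.53 in anti-CD40 tumours 1, 2 and 3. Vehicle 1 lay inside the anti-CD40 range, while vehicle 2 and vehicle 3 lay below it. The groups were 12.58 ± 0.58 and 13.14 ± 0.35, a difference of 0.56 (SE 0.35). Leaving out vehicle 1 gave 0.89, leaving out vehicle 2 gave 0.35 and leaving out anti-CD40 3 gave 0.36.

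Hc, the mouse gene for C5 and so for the ligand of C5ar1, was near background. It was 5.49, 5.22 and 4.75 in vehicle and 5.0, 6.14 and 4.59 in anti-CD40 libraries, from recovered counts of 22, 10, 13, 12, 27 and 7. Only anti-CD40 2 passed the limit, and the 95% exact Poisson interval of its 27 counts, 17.8 to 39.3, includes the limit of 24.7. A difference between groups was not detectable at this level, since the negative control probes themselves averaged 12.4 to 16.1 counts per library. The measured difference of 0.09 turned to −0.36 without anti-CD40 2 and to −0.11 without vehicle 3. Mbl2 and C9, the measured genes of the hepatocyte list (2 of 7), were each above the limit in 1 library. Their summed normalized count ran from 55.1 to 82.1 in vehicle and from 78.3 to 156 in anti-CD40 tumours.

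Cfb, which encodes factor B, the protease subunit of the alternative C3 convertase, was 8.73, 7.48 and 7.39 in vehicle libraries 1, 2 and 3. It was 7.95, 8.31 and 8.39 in anti-CD40 libraries 1, 2 and 3. As for C3, vehicle 1 stood above its group and the other 2 vehicle libraries lay below all anti-CD40 libraries. The groups were 7.87 ± 0.75 and 8.21 ± 0.23, a difference of 0.35 (SE 0.39). Leaving out vehicle 1 gave 0.78, vehicle 2 gave 0.15 and vehicle 3 gave 0.11.

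Several complement genes ranked the libraries as Cfb or C3 did. C3ar1, C2, C4b and C1qb had the order of Cfb, with vehicle 1 first and vehicle 3 last in one group and anti-CD40 3 first and anti-CD40 1 last in the other. In all, 41 of the other 769 genes had this order (5.33%). C2, the classical-pathway counterpart of factor B and the nearest protein-coding gene to Cfb on one side in RefSeq, was 8.32, 7.31 and 7.10 in vehicle and 7.59, 8.12 and 8.52 in anti-CD40 libraries. The order of C3 was shared by 10 genes (1.30%), among them C1ra, a protease of the C1 complex, and Serping1, the C1 inhibitor. Serping1 was 12.47, 11.62 and 11.70 in vehicle and 12.27, 12.15 and 12.75 in anti-CD40 libraries. Vehicle 1 and anti-CD40 3 were thus high for all of these genes within their groups.

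**Figure D2:**
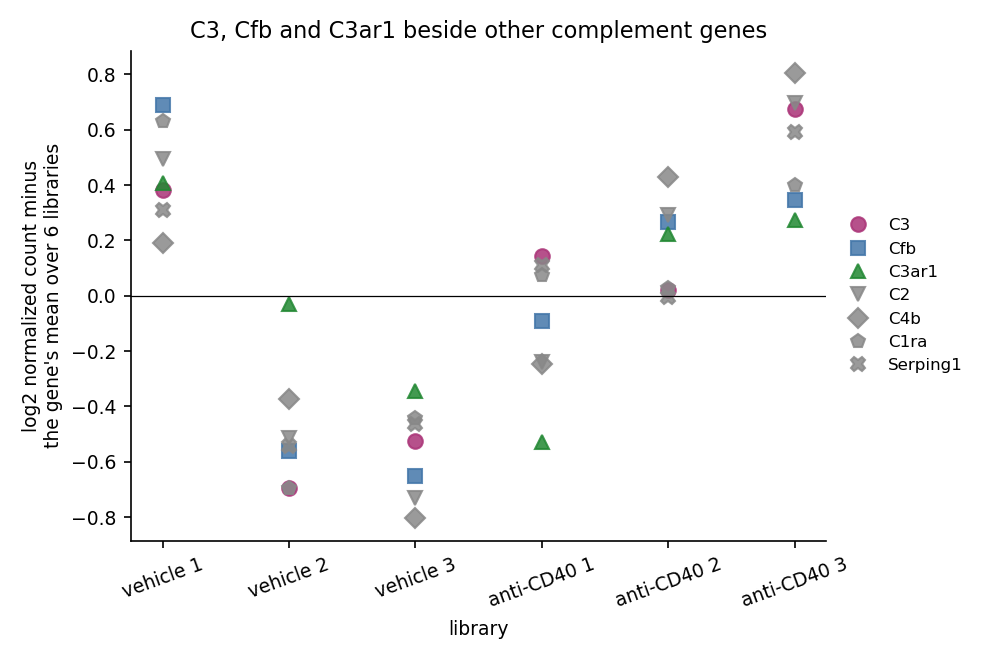
Log2 normalized count of C3, Cfb, C3ar1, C2, C4b, C1ra and Serping1 minus each gene's mean over the 6 libraries (vertical axis), by library (horizontal axis), 1 symbol per gene. All 7 symbols lie above 0 in vehicle 1 and in anti-CD40 3 and below 0 in vehicle 2 and vehicle 3.

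Cfd, which encodes factor D (adipsin), the protease that cleaves factor B and a product of fat cells and myeloid cells, varied more within the groups than between them. It was 5.37, 10.74 and 7.0 in vehicle tumours 1, 2 and 3, then 11.76, 9.99 and 6.83 in anti-CD40 tumours 1, 2 and 3. Recovered counts ran from 20 in vehicle 1, under the limit, to 1514 in anti-CD40 1. Vehicle 2 and anti-CD40 1 and 2 were high and the other 3 libraries low, so the groups overlapped. The groups were 7.70 ± 2.75 and 9.53 ± 2.50, a difference of 1.83 (SE 1.59). This value was 0.66 without vehicle 1, 0.71 without anti-CD40 1, 3.17 without anti-CD40 3 and 3.34 without vehicle 2. Its pooled within-group SD of 2.63 was exceeded by only 2 of the 770 genes, Camp (3.35) and Dmbt1 (2.72), against a median of 0.39.

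Camp, the cathelicidin gene of immature granulocytes, was 4.27, 10.81 and 4.84 in vehicle and 11.17, 8.87 and 5.14 in anti-CD40 libraries. The granule list to which it belongs had 7 of 8 genes measured and averaged 5.68, 9.01 and 5.47 in vehicle and 9.14, 7.72 and 5.90 in anti-CD40 libraries. Its summed normalized count ran from 407 to 4796 in vehicle and from 758 to 6309 in anti-CD40 tumours. Its defining markers Camp, Ltf, which encodes lactoferrin, and the myeloperoxidase gene Mpo ranked the libraries within each group as Cfd did, and so did Ctsg, the cathepsin G gene. The other 3 measured granule genes did not: vehicle 1 stood above vehicle 3 for the elastase gene Elane, for Prg2 and for Lcn2, which encodes lipocalin 2. Lcn2 was 10.62 in vehicle 1, where Cfd was lowest. In all, 22 of 769 genes had that order (2.86%).

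Among these 22 were also Dmbt1, Msln and Ccl28, genes of secretory or surface epithelium. Dmbt1 was 10.06, 16.96 and 13.83 in vehicle and 17.23, 15.17 and 13.89 in anti-CD40 libraries, and Msln, the mesothelin gene, 7.13, 11.73 and 8.86 and then 11.69, 9.96 and 9.05. In vehicle 3, Cfd stood 1.64 and Dmbt1 3.77 above vehicle 1. Granule genes of the same order were near background in these 2 libraries: Camp was under the limit in both, while Ltf went from 5.0 to 5.94 and passed it in vehicle 3. The adipocyte list had 1 of 6 genes measured, Pparg, which stayed between 5.92 and 6.77. Adipoq and Lep, which define fat cells, were not among the 770 genes. The part of these cell types in the Cfd values was not tested.

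**Figure D3:**
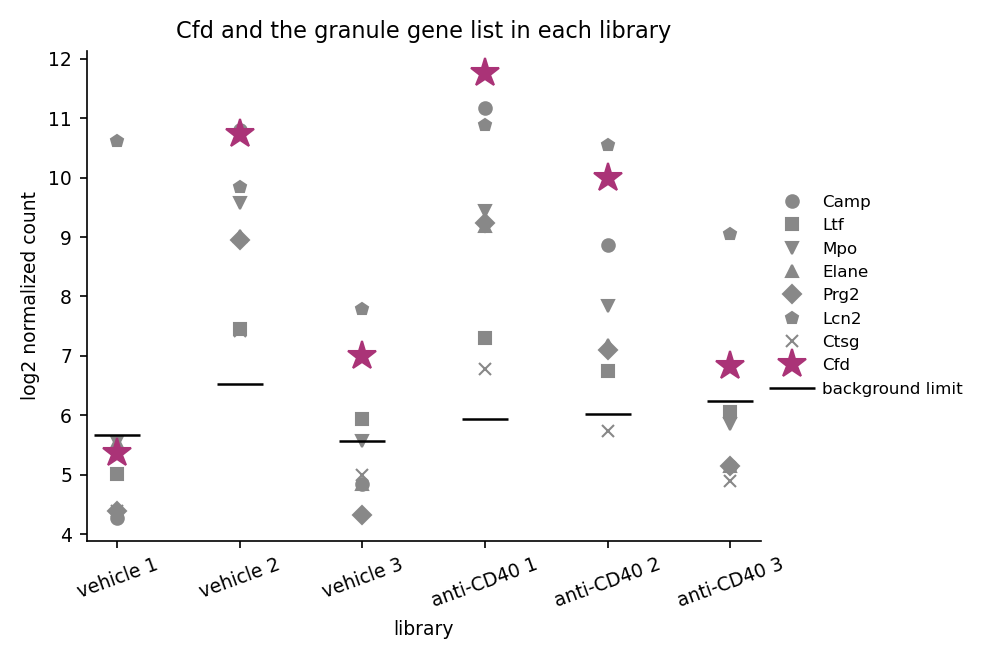
Log2 normalized count (vertical axis) of Cfd (stars) and of the 7 measured granule genes (grey symbols) in each library (horizontal axis), with each library's background limit as a black dash. Cfd reaches 10.74, 11.76 and 9.99 in vehicle 2 and anti-CD40 1 and 2, the libraries in which Camp, Elane and Prg2 are also above the limit, and 5.37 to 7.0 in the other 3.

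Cfp, which encodes properdin, the stabiliser of the alternative convertase made largely by neutrophils, monocytes and T cells, was 8.15, 8.20 and 7.20 in vehicle libraries 1, 2 and 3. It was 8.54, 8.43 and 8.52 in anti-CD40 libraries 1, 2 and 3. The groups did not overlap, but the nearest libraries, vehicle 2 and anti-CD40 2, were 0.23 apart and vehicle 3 stood well below the rest. The groups were 7.85 ± 0.56 and 8.50 ± 0.06, a difference of 0.65 (SE 0.31), or 1.57-fold, that was 0.33 without vehicle 3. Vehicle 3 was also the lowest library for the macrophage and the mature neutrophil lists, but not for these alone. It was lowest of all 6 for the fibroblast, endothelial, mast cell, granule and B cell lists too. Its median over all genes was 7.68, beside 7.90 to 8.19 elsewhere. Vehicle 3 was not lowest of all 6 for the T cell and epithelial lists, nor for the mean of the housekeeping genes (11.05, beside 11.01 to 11.11). Within the vehicle group it was lowest on both lists. The T cell list averaged 6.94, 6.71 and 6.38 in vehicle libraries 1, 2 and 3, and the epithelial list 11.18, 10.98 and 10.91. Relative to the macrophage list Cfp was −0.33, −0.18 and −0.50 in vehicle and 0.37, −0.15 and 0.31 in anti-CD40 libraries. These values did not overlap, by a margin of 0.02 between anti-CD40 2 and vehicle 2. Relative to the mature neutrophil list Cfp was 0.47, 0.11 and 0.28 in vehicle and 0.60, −0.22 and 1.55 in anti-CD40 libraries, and these overlapped, with a difference of 0.36. The part of these cell types in the Cfp difference was not tested.

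Cfi, the gene for factor I, the protease that inactivates C3b, was 5.0, 5.75 and 5.40 in vehicle and 6.44, 7.43 and 5.54 in anti-CD40 libraries. Anti-CD40 1 and 2, with 36 and 69 recovered counts, passed the limit and the other 4 did not. The same count of 15 was recovered in vehicle 1, vehicle 2 and anti-CD40 3, so the deposited values of 5.0, 5.75 and 5.54 in these libraries differ by the library factors alone. The groups were 5.39 ± 0.37 and 6.47 ± 0.95, a difference of 1.09 (SE 0.48). It was 0.61 without anti-CD40 2, and 0.79 with values under the limit set to it.

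The rest of the pathway was taken from a list of 47 other complement genes, 28 of which were measured and 19 above the limit in all libraries. Limma called 0 of the 28 in either direction (lowest adjusted p = 0.974). In the mean 24 were higher and 4 lower, with a median difference of 0.34, beside 0.04 for all 770 genes. By role, 9 of 11 genes listed with the classical and lectin initiation steps, C1qbp and Colec12 included, were above the limit in all libraries. So were 2 of 6 terminal components, 6 of 8 regulators and 2 of 3 other receptors, the rest being near or under background. Whatever their level, 11 of 11, 5 of 6, 6 of 8 and 2 of 3 were higher in the mean, beside 54.5% of all 770 genes. Marker lists of stroma lay the same way: 6 of 6 measured fibroblast genes and 5 of 6 endothelial genes were higher in the mean, with overlapping list means of 11.02 ± 0.37 and 11.23 ± 0.11, and of 9.56 ± 0.28 and 9.89 ± 0.33. Their summed normalized counts ran from 20487 to 36618 and 28960 to 42099 for fibroblasts, and from 4145 to 6413 and 4799 to 7659 for endothelium. The collagen gene Col3a1 (0.43) and Lyve1 (0.88), a gene of lymphatic endothelium and some macrophages, were higher without overlap. Higher in the mean were also 8 of 13 macrophage, 6 of 8 neutrophil, 7 of 7 granule and 4 of 5 mast cell genes. The counts were 0 of 5 dendritic cell, 0 of 7 T cell, 3 of 7 B cell and 1 of 4 epithelial genes. The part of any of these cell types in the complement values was not tested.

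The groups did not overlap for 2 of the 28, Colec12 and Masp2, both higher, which is near the 6.75% over all genes in that direction. Colec12, which encodes a scavenger receptor collectin, was 9.02 ± 0.24 and 9.37 ± 0.12. Masp2, a protease of the lectin pathway, was at or under the limit in every library. C1qa, a chain of C1q that macrophages make, was 10.74 ± 0.45 and 10.77 ± 0.05, a difference of 0.03 (SE 0.28). C1qb, another chain of C1q, differed by 0.30 (SE 0.27), with overlapping groups. Itgam and Itgb2, the chains of complement receptor 3, which binds fragments of C3, differed by 0.42 (SE 0.39) and 0.09 (SE 0.28), with overlapping groups, and Itgam also stands in the macrophage list. C6, a component of the membrane attack complex, differed by −0.01 (SE 0.28). C7, the other terminal component above the limit in all libraries, differed by 0.35 (SE 0.41), with overlapping groups.

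**Figure D4:**
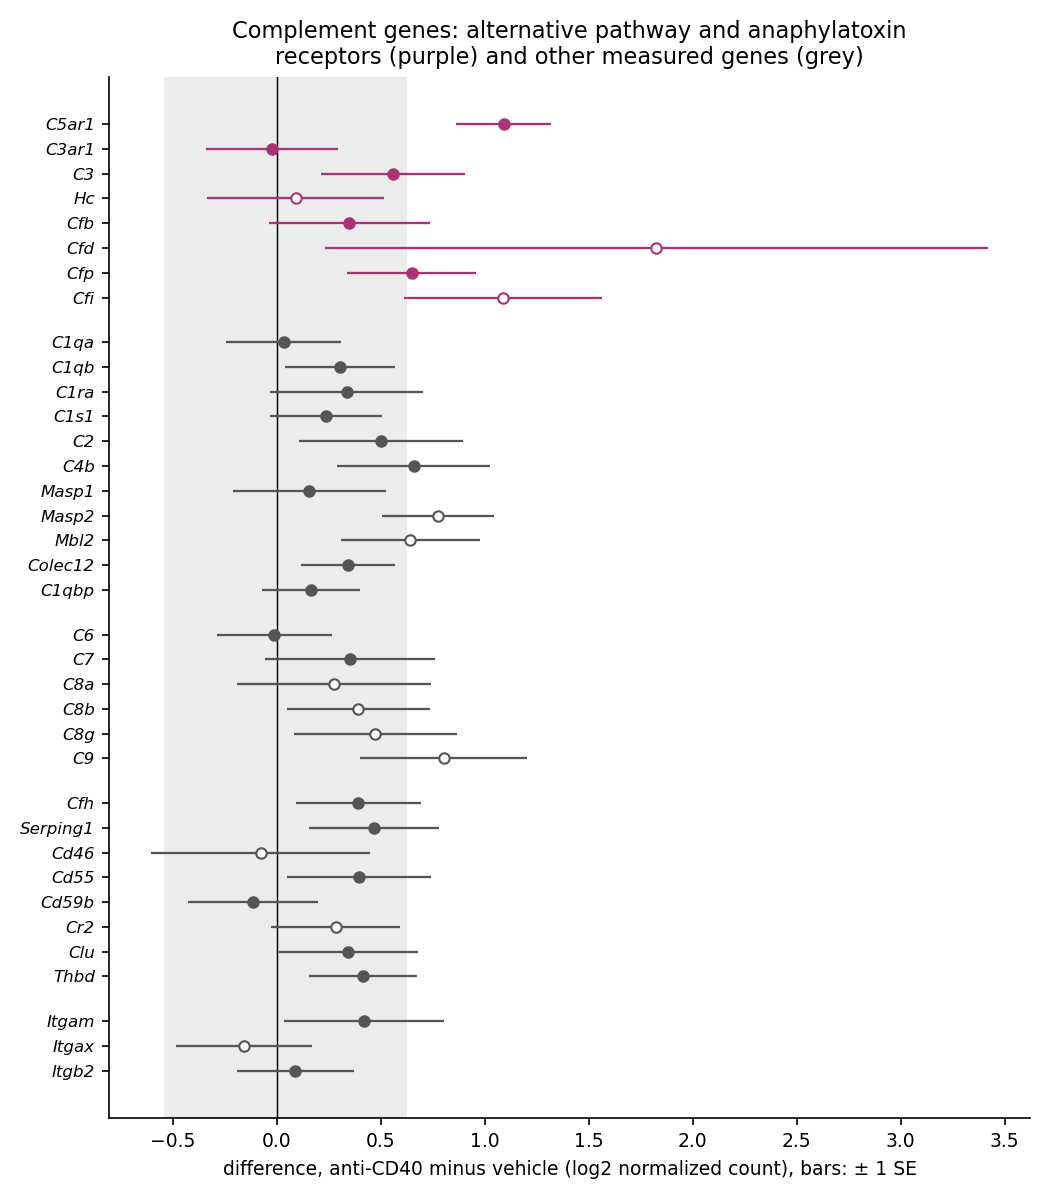
Difference between group means, anti-CD40 minus vehicle, in log2 normalized counts (horizontal axis) with ± 1 SE for the 8 members (purple) and 28 other complement genes (grey, in the order initiation, terminal components, regulators, other receptors). Filled symbols mark genes above the limit in all 6 libraries, and the grey band holds the 5th to 95th percentile of all 770 genes, −0.54 to 0.63. Of the members, C5ar1, Cfd, Cfp and Cfi lie to the right of the band, Cfd with an SE of 1.59.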

How the data were processed

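Expression was measured in 3 vehicle and 3 anti-CD40 tumour samples. The values are log2 normalized counts, deposited by the authors for 770 genes, 6 positive and 8 negative control probes. The sources used here give no platform, software or normalization. Each of the 4704 deposited log2 values was the logarithm of 4.55 plus a whole count multiplied by a library factor (1.72 to 3.28), within 0.05 of a count. The added 4.55 shrinks differences at low counts.

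Groups were compared with limma 3.58.1 in R 4.3.3 (lmFit, eBayes without trend) on all 770 genes. Tests were two-sided, p-values were adjusted by Benjamini-Hochberg, and 0.05 was the threshold. Member differences and SE come from this fit. The fit was tested on simulated data. Summaries and plots used Python 3.11.15.

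Members and gene lists were chosen with earlier results of these data known. The rule for named genes took every member, the other complement genes whose groups did not overlap, the 5 genes most like each receptor, and the first 3 measured markers of the lists set beside a result. Genes outside it, such as Cd163, Mrc1, C1qa, C2, Serping1, Elane, Lcn2, Lyve1, Dmbt1 and Msln, were chosen after their values were seen. Promoters came from RefSeq, GRCm38.p6. Alternatives were centring, quantile normalization, a background filter and floor, the offset, the variance model, a replicate block and leaving out libraries.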

Additional observations from a re-analysis of the deposited data

How the results depend on the processing

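Under the 15 alternatives, C5ar1, C3, Cfb, Cfd, Cfp and Cfi kept a positive difference wherever they were tested. C3ar1 and Hc changed sign in 3 each, all of them fits without 1 or more libraries. Not every alternative could change a sign. The variance model, the replicate block and the background filter leave a gene's difference as it is. For C5ar1 and Cfp, whose groups do not overlap, leaving out libraries cannot change the sign either. With 1 library left out, the number of members higher in the mean lay between 6 and 8. No alternative with all libraries called a gene, a member or another complement gene, and none moved the median of all genes by over 0.1. That median fell by 0.13 without vehicle 3.

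The count of genes whose groups do not overlap was 79, and 111 to 191 with 1 library left out, where fewer samples make separation easier. Without vehicle 2 and anti-CD40 1 and 2, chosen after seeing the data for their high granule genes, limma called 2 genes, Ppbp and Cxcl13, neither a complement gene. There C5ar1 differed by 1.07, Cfp by 0.85, Cfd by 0.64 and Cfi by 0.34, with 1 anti-CD40 library assumed to vary like the others.

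With the replicate block, 0 genes were called and 32 had an unadjusted p under 0.05. Same-numbered samples did not deviate together (correlations −0.35, −0.03 and 0.18 over 523 genes), so the numbers were not taken as pairs. Limma-voom with TMM factors was not run, and factors from the deposited scaling took their place, a choice made after seeing the data. Most values of Hc and Cfi lie under the background limit, which limits what their differences can show.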
